A study of Mus musculus with 2 samples.

Results

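Mt1 and Mt2, the genes of the 2 metallothioneins made in most mouse tissues, were described by cell type in post-ischemic kidney. They are 2 of the 32285 genes listed in the deposited count tables and were taken by symbol. They were selected on their UMI levels and shares of cells by cell type in these same libraries, so levels and ratios are a description and no test was made on them. Metallothioneins are small proteins rich in cysteine that bind zinc and copper and can also quench reactive oxygen species. The zinc-sensing factor MTF-1 binds metal response elements in their promoters, and glucocorticoids, interleukin-6 signalling and oxidative stress are also known to raise their transcripts. In kidney, the proximal tubule takes up filtered metallothionein and is a main site of heavy metal injury.

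The series holds single-cell RNA sequencing with 5′ capture of 1 control kidney, from a saline-injected mouse, and 1 kidney treated with 100 mg/kg of JPI-289, an inhibitor of poly(ADP-ribose) polymerase. Both mice were C57BL/6 males aged 9 weeks that underwent bilateral renal ischemia-reperfusion, were injected into the peritoneal cavity just before reperfusion, and were sampled 24 h after surgery. Each condition has 1 library from 1 mouse, so drug, animal and library cannot be told apart, and every interval given is a 95% interval that covers counting error only. Levels are given as UMIs per 1000000 UMIs of the same cells (UPM). The control library held 38328760 UMIs (unique molecular identifiers, each counting a captured transcript once) and the JPI-289 library 35548396. Of their barcodes, 3741 and 5037 were kept as cells, with median depths of 2063 and 1867 UMIs and 23 barcodes in common.

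Cells were grouped in 26 clusters without use of Mt1 and Mt2, and 12 classes were named "-like" from their marker genes, among them proximal tubule (PT), thick ascending limb of the loop of Henle (LOH), distal convoluted and connecting tubule (DCT/CNT), principal (CD-PC) and intercalated (CD-IC) cells of the collecting duct, and endothelial cells (EC). Every marker of a class had UMIs in that class in both libraries, except among lymphocyte-like cells, where 6 of 11 had them in the 6 control cells and 10 in the 98 JPI-289 cells. The 1777 control and 1642 JPI-289 PT-like cells fell in 6 clusters, each with at least 97.1% of its cells from 1 library. LOH-like, DCT/CNT-like, CD-PC-like, stroma-like, macrophage-like and the main EC-like clusters held cells of both libraries.

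Both genes lie on the forward strand of mouse chromosome 8 (GRCm38, GENCODE vM21), in a row with their relatives Mt4 (94137197 to 94139031) and Mt3 (94152607 to 94154146). Mt2 (ENSMUSG00000031762) spans 94172664 to 94173568 and Mt1 (ENSMUSG00000031765) spans 94179082 to 94180327, with 5513 bases between them. Each has 3 exons. The coding sequences are shown because their cysteine codons, in capitals, are what defines the family. Both are 186 bases long from the start to the stop codon.

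Mt1: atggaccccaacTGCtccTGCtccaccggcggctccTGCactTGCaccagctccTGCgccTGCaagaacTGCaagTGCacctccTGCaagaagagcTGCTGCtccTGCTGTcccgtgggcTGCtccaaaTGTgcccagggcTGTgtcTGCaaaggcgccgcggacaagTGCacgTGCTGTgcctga
Mt2: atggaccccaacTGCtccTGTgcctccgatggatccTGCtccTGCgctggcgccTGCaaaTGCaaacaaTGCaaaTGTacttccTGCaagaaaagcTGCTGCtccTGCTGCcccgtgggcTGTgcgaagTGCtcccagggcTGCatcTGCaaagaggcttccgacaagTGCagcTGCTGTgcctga

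Of 61 codons before the stop codon, 20 (32.8%) encode cysteine in each gene, and all 20 stand at the same places. The coding sequences share 148 of 186 bases (79.6%). Reads of the genes can still be told apart, since the longest run shared by their first transcripts (549 bases for Mt1, 511 for Mt2) was 20 bases and none of the 1292 windows of 50 bases in Mt1 transcripts or the 554 in Mt2 transcripts occurred in a transcript of any other annotated gene.

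The sequences upstream of the genes are shown for their metal response elements. They are RefSeq promoter windows of GRCm38.p6 on the forward strand, cut before the first annotated exon, with capitals for the core of the element, TGCACNC or TGCGCNC, read on either strand. The Mt1 run is chr8:94178839-94179081 and the Mt2 run is chr8:94172368-94172617.

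Mt1 promoter: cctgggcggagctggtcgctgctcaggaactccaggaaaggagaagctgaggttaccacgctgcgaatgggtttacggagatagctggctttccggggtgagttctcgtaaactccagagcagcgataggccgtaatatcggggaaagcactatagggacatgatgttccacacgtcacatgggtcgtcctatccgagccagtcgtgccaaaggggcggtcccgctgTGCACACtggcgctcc
Mt2 promoter: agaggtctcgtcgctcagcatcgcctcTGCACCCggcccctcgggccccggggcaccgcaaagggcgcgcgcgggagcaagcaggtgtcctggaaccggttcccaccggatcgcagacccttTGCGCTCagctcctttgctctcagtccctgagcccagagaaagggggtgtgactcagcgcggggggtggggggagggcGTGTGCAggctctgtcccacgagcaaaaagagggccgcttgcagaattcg

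In the full RefSeq windows, from 250 bases before to 50 bases after the annotated start, Mt1 had 3 cores and Mt2 had 4. At least 1 core was present in 25.7% of the 32851 mouse promoter windows, at least 3 in 1.97% and at least 4 in 0.517%. Followed on to the start codon, 472 bases held 5 cores at Mt1 and 480 bases held 7 at Mt2, the nearest of them starting at -124 and -119 from the start codon. Cores starting at 2, 20, 84 and 98 from the RefSeq start of Mt1 lie past the printed run. So do those at 4, 58, 77 and 111 from that of Mt2. Other motifs were searched in the RefSeq windows alone and were not followed on to the start codon. There Mt2 had 1 match to the antioxidant response element TGACNNNGC, starting at -79 from its RefSeq start, a motif found in 12.4% of windows on either strand. The Mt1 window had none, and the bases between it and the start codon were not searched for it. Neither window held the STAT motif TTCNNNGAA (8.3% of windows) or the USF motif CACGTG (7.15%), and no match overlapped another. These matches describe letters in a sequence, and nothing was measured on binding.

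Over all called cells, Mt1 was at 2746 UPM in control cells and 8857 in JPI-289 cells, and Mt2 was at 360 and 1204. The JPI-289 library was thus higher for both, by a log2 ratio of 1.69 (1.68 to 1.71) for Mt1 and 1.74 (1.70 to 1.78) for Mt2, against a median of -0.22 over all measured genes. Of 14535 genes with at least 20 UMIs, 5.68% were at least 2-fold higher with JPI-289. The pooled Mt1 ratio mixes classes that ranged from 18.2-fold higher to 0.888-fold, so the classes were taken in turn.

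In PT-like cells, Mt1 was at 525 UPM (509 to 541) in control cells and at 9575 (9504.5 to 9646) in JPI-289 cells. Mt2 was at 34.9 (31 to 39.2) and 1045 (1021 to 1068). Proximal tubule cells thus held little of either transcript in the control kidney, where they were lowest of the 12 classes for Mt2, with an interval that overlapped the next class, and had rank 4 for Mt1 and rank 6 for Mt2 in the treated kidney. The log2 ratio of JPI-289 to control was 4.19 (4.15 to 4.23) for Mt1, or 18.2-fold, and 4.90 (4.73 to 5.08) for Mt2, or 29.9-fold. Among 11303 genes measured in PT-like cells, whose median log2 ratio was -0.19, Mt2 ranked 12 and Mt1 ranked 18 from the top, and 9.16% of all genes were at least 2-fold higher with JPI-289.

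Other features of PT-like cells moved beside the metallothioneins. The summed level of the 16 PT markers was 24431 UPM in the control and 13813.5 in JPI-289 cells, with 3 of 16 higher in the latter. The 9 markers of injured PT summed to 390 and 1969 UPM, 8 of 9 being higher with JPI-289, and the 6 neutrophil markers summed to 29.0 and 89.2, 5 of 6 being higher. Red blood cell markers summed to 111 and 142 UPM. The marker lists of all other classes summed lower with JPI-289, among them LOH (153 and 26.6), CD-PC (70.5 and 21.8), EC (46 and 16.4) and stroma (44.1 and 8.86). Of single markers, 2 of 7 for LOH, 1 of 7 for CD-PC, 0 of 9 for EC and 1 of 11 for stroma were higher. Umod, a LOH marker, was at 18.6 and 21 UPM in PT-like cells, so the lower LOH sum came from other markers. Median depth was 2285 and 1859 UMIs, and mitochondrial genes held 10.8% and 9.38% of UMIs. The part of these differences in the metallothionein result was not tested.

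In LOH-like cells, which reabsorb salt and make uromodulin, Mt1 was at 21987 UPM (21675 to 22302) in the control and 30074 (29766 to 30384.5) in JPI-289 cells. Mt2 was at 2623 (2516 to 2733) and 4058 (3945 to 4173). The Mt1 levels were the highest of any class in both libraries. The log2 ratios were small, 0.45 (0.43 to 0.48) for Mt1 and 0.63 (0.56 to 0.70) for Mt2, with 8.62% of measured genes at least 2-fold higher.

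DCT/CNT-like cells had the next highest tubular levels. Mt1 was at 7003 UPM in the control and 11493.5 in JPI-289 cells, and Mt2 at 737 and 1259, giving log2 ratios of 0.72 (0.66 to 0.77) and 0.77 (0.62 to 0.93), where 7.31% of genes were at least 2-fold higher. The class joined a pair of clusters that differed in level. The larger cluster, led by Slc12a3, the thiazide-sensitive cotransporter, and by Calb1, had 7894 and 12949 Mt1 UPM, whereas the cluster with the nuclear RNAs Neat1 and Malat1 among its leading genes, with 39 and 46 cells, had 1117 and 1304. In the latter the intervals of both ratios included 0.

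The collecting duct had the smallest ratios of the tubule. In CD-PC-like cells, which carry the water channel Aqp2, Mt1 was at 1535 UPM (1458 to 1614) in the control and 1362 (1301 to 1426) in JPI-289 cells, and Mt2 at 171 (146 to 199) and 149 (130 to 171). It was the only class of 12 in which both genes were lower with JPI-289, by a log2 ratio of -0.17 (-0.27 to -0.07) for Mt1 and -0.19 (-0.50 to 0.11) for Mt2, the latter interval including 0 (8.89% of genes were at least 2-fold higher in this class). The JPI-289 cells were shallower, with a median of 1539 UMIs against 9497, and the Mt1 difference changed sign, to a log2 ratio of 0.215, when each cell had equal weight, whereas it was -1.39 for Mt1 and -2.67 for Mt2 with free RNA of barcodes under 100 UMIs subtracted. In CD-IC-like cells, whose leading genes included Atp6v1g3, Slc4a9 and Slc26a4, Mt1 was at 2012 and 2429 and Mt2 at 152 and 181. The interval of the Mt2 ratio, 0.25 (-0.50 to 1.01), included 0 (13.2% of genes at least 2-fold higher, 45 and 61 cells).

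Outside the tubule, EC-like cells had Mt1 at 739 UPM (702 to 778) in the control and 4821 (4718 to 4926) in JPI-289 cells, and Mt2 at 168 (150 to 187) and 1413 (1357 to 1470). This was the largest ratio among classes with at least 100 cells in each library after PT, with log2 values of 2.71 (2.62 to 2.79) and 3.07 (2.91 to 3.24), and Mt2 and Mt1 again ranked 12 and 18 from the top, here among 9732 genes (5.17% at least 2-fold higher). In stroma-like cells Mt1 was at 8697 and 15280.5 and Mt2 at 1523 and 4162, so that Mt2 had the larger ratio, 1.45 (1.35 to 1.56) against 0.81 (0.76 to 0.86) for Mt1 (11.4% of genes at least 2-fold higher). In summed UMIs, stroma-like cells came next after LOH-like cells for Mt1 in both libraries.

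Among leukocytes, macrophage-like cells had Mt1 at 2359 UPM in the control and 9047 in JPI-289 cells and Mt2 at 237 and 1226, with log2 ratios of 1.94 (1.88 to 1.999) and 2.37 (2.19 to 2.56) (8.93% of genes at least 2-fold higher). Neutrophil-like cells had Mt1 at 1034.5 and 3012 and Mt2 at only 52.9 and 155, with ratios of 1.54 (1.40 to 1.68) and 1.52 (0.93 to 2.23) (11.5%), which were 2.60 and 0.93 with the deepest cells alone. Taken as whole classes, macrophage-like cells thus held more of both transcripts than neutrophil-like cells in each library. In a macrophage-like cluster with Lyz2, Fn1 and Arg1, however, Mt2 was at 49.3 UPM in the control, not above neutrophil-like cells, and at 321 with JPI-289. In podocyte-like cells Mt1 was at 357 and 2896.5, but the control value rested on 10 UMIs in 17 cells, and the log2 ratio of 2.95 was 1.695 in cells with at most 20% mitochondrial UMIs (17.4% of 725 genes at least 2-fold higher). Lymphocyte-like cells had 1572 Mt1 UPM in JPI-289 cells, and the 6 control cells held 4 Mt1 UMIs and 1 Mt2 UMI. Red blood cell-like barcodes, in which globin transcripts make up most RNA, had Mt1 at 324 and 2599 and Mt2 at 49.4 and 331 (17.4% of 512 genes at least 2-fold higher), and their log2 ratios of 2.99 and 2.655 were 1.935 and 1.58 with equal weight of each barcode.

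Counted over the 12 classes, both genes were higher with JPI-289 in 11. The interval of the ratio lay above 0 in 11 classes for Mt1 and in 9 for Mt2, and the ratio was at least 2-fold in 7 for Mt1 and 8 for Mt2. These counts include podocyte-like, lymphocyte-like and red blood cell-like cells, whose control Mt1 UMIs were mostly put down to free RNA, as given further on, and the lymphocyte-like Mt2 ratio rested on 1 control UMI, with an interval of -0.84 to 7.03. How many of all genes were higher in as many classes was not counted. By ratio, Mt1 ranked 2017 of 7751 measured genes in LOH-like and 1041 of 7096 in DCT/CNT-like cells. It ranked 1257 of 7436 in stroma-like and 1331 of 3152 in CD-IC-like cells, but 86 of 8141 in macrophage-like and 261 of 6249 in neutrophil-like cells.

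**Figure D1:**
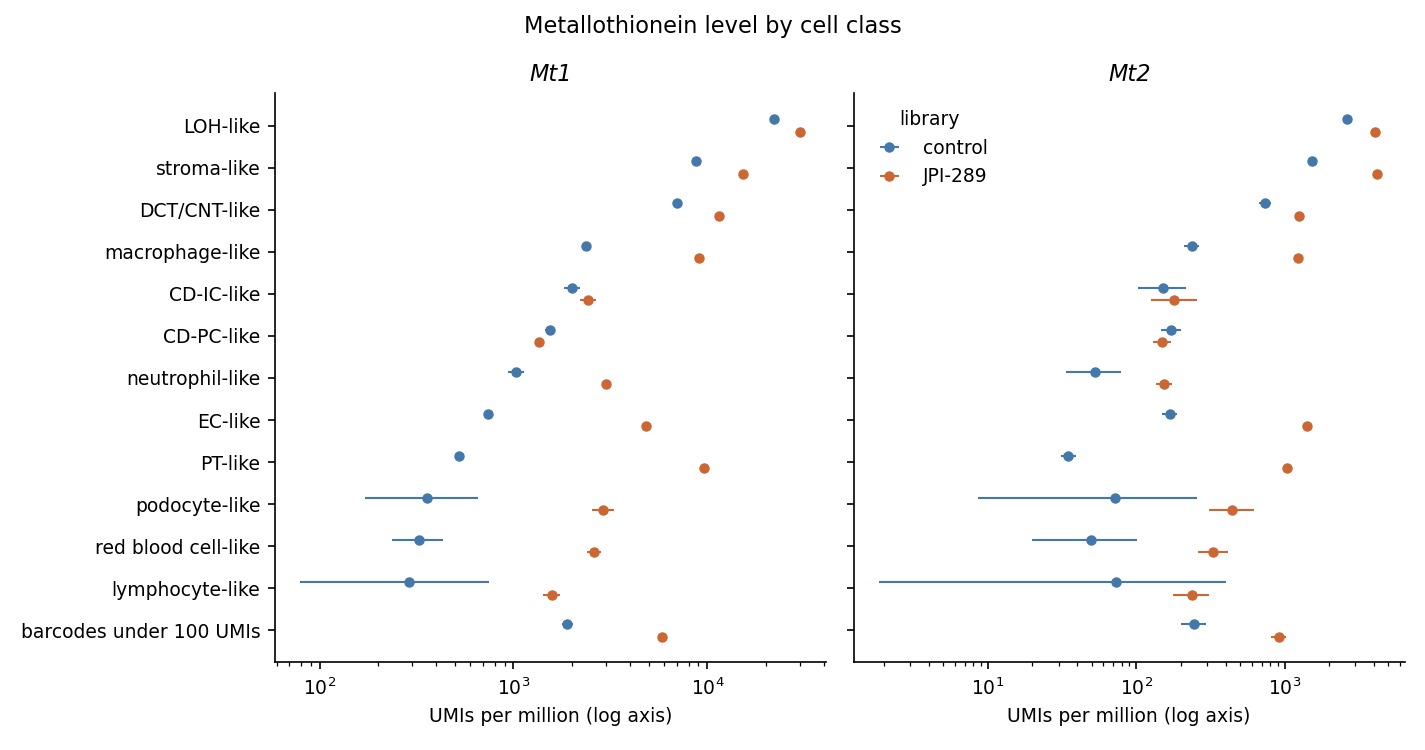
Level of Mt1 and Mt2 in UPM (log axis) in 12 cell classes and in barcodes with under 100 UMIs, for the control and the JPI-289 library; points are sums over all cells of a class and bars are exact 95% Poisson intervals. PT-like cells were at 525 and 9575 for Mt1, the widest gap, whereas the LOH-like points, 21987 and 30074, lay close together and the CD-PC-like points were in reverse order.

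The order of the classes was partly shared by the libraries. In the control, Mt1 ran from LOH-like through stroma-like, DCT/CNT-like, macrophage-like, CD-IC-like, CD-PC-like, neutrophil-like and EC-like to PT-like cells, each step larger than the counting intervals, and from PT-like through podocyte-like and red blood cell-like to lymphocyte-like cells neighbours overlapped. In the JPI-289 library, LOH-like, stroma-like and DCT/CNT-like cells again led, followed by PT-like, macrophage-like and EC-like cells, all separated by their intervals. Below these, neutrophil-like, podocyte-like, red blood cell-like and CD-IC-like cells overlapped with their neighbours, and CD-PC-like cells came last, overlapping lymphocyte-like cells. For Mt2 in JPI-289 cells, stroma-like (4162) and LOH-like cells (4058) had overlapping intervals at the top, and EC-like cells (1413) came next. These orders are of summed UMIs, and the intervals leave out the spread between cells. In cells thinned to 1000 UMIs, some steps for Mt1 turned around. The control means per cell were 5.91 in stroma-like and 6.56 in DCT/CNT-like cells, and 1.3 in CD-PC-like and 1.42 in neutrophil-like cells. Between EC-like and PT-like cells, the control means were 0.572 and 0.604. In the JPI-289 library they were 10.1 in PT-like and 10.7 in macrophage-like cells.

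Droplets contain free RNA, so levels were set beside those of barcodes too small to be cells. In barcodes with under 100 UMIs, Mt1 was at 1898 UPM (1772 to 2031) in the control and 5841 (5588 to 6102) with JPI-289, and Mt2 at 245 and 913. For Mt1, LOH-like, stroma-like, DCT/CNT-like and macrophage-like cells, each taken as a whole class, were above these levels in both libraries. Within these classes, a macrophage-like cluster with Lyz2, Fn1 and Arg1, at 1193 and 4357, was below them in both. The DCT/CNT-like cluster with Neat1 and Malat1, at 1117 and 1304, was also below them in both. PT-like cells were below in the control and above with JPI-289. EC-like, CD-PC-like, neutrophil-like, podocyte-like, lymphocyte-like and red blood cell-like cells were below in both, and CD-IC-like cells overlapped in the control and were below with JPI-289. In barcodes of 100 to 300 UMIs Mt1 was at 2365 and 7618, which control macrophage-like cells, at 2359, did not exceed. For Mt2, control macrophage-like cells, at 237 (210 to 266), overlapped the barcodes under 100 UMIs, at 245 (201 to 296), and JPI-289 EC-like cells, at 1413, were above the 913 (815 to 1020) of those barcodes.

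The share of a class's UMIs that came from free RNA was estimated from markers of other classes. With the profile of barcodes under 100 UMIs, free RNA accounted for 23.9% of Mt1 and 46.4% of Mt2 UMIs in control PT-like cells but for 3.06% and 4.38% in JPI-289 PT-like cells. With the profile of barcodes of 100 to 300 UMIs these were 55.4% and 88.8%, and 5.81% and 6.31%. Subtraction widened the log2 ratios in PT-like cells, to 4.54 for Mt1 and 5.73 for Mt2 with the first profile and to 5.27 and 7.95 with the second, which was added after the data had been seen. In EC-like cells free RNA accounted for 38.6% and 27.0% of Mt1 UMIs of control and JPI-289 origin, and in neutrophil-like cells for 27.9% and 24.0% of Mt1 but 70.3% and 73.2% of Mt2 UMIs, so the neutrophil-like Mt2 levels of 52.9 and 155 UPM are mostly free RNA by this estimate. Of control Mt1 UMIs, the first and second profiles gave 67.3% and 90.4% in podocyte-like, 56.2% and 116% in red blood cell-like and 104% and 107% in lymphocyte-like cells, the last resting on 4 UMIs. In JPI-289 CD-PC-like cells the estimate was 57.9% with the first profile and 203% with the second, more than the UMIs counted, so the level of those cells could not be told apart from free RNA.

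The clusters held by both libraries gave the comparison within cells that grouped together, though these could still differ in depth. In 14 clusters with at least 20 cells in each library, Mt1 was higher with JPI-289 in 13, with the interval above 0 in 12, and Mt2 in 13, with the interval above 0 in 11. The exception was the CD-PC-like cluster. How many of all genes were higher in as many clusters was not counted. Mt1 in free RNA was itself higher with JPI-289, at 5841 UPM against 1898 in barcodes under 100 UMIs. Of the clusters with higher Mt1, several lay below these levels in both libraries. They were the neutrophil-like and red blood cell-like clusters, the EC-like cluster led by Esm1, the macrophage-like cluster with Lyz2 and the DCT/CNT-like cluster with Neat1. In the PT-like cluster led by Srxn1 and Plin2, which had 29 control and 977 JPI-289 cells, Mt1 was at 1640 and 11417.5 UPM, a log2 ratio of 2.79 (2.40 to 3.23), smaller than over all PT-like cells, on 50 control UMIs. Its median depth was 663 UMIs in control and 1204 in JPI-289 cells. The control level was not above the 1898 UPM of control barcodes under 100 UMIs. No other PT-like cluster had 20 cells of both libraries.

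Among EC-like cells, the cluster led by Esm1 and Ctla2a had Mt1 at 749 and 4743 UPM, and the cluster led by Plvap, a gene of fenestrated capillaries, at 734 and 8809, so that levels that were alike in the control were apart with JPI-289, here over 36 cells. Median depth in the Plvap-led cluster was 3918.5 UMIs in control and 8407.5 in JPI-289 cells. The remaining EC-like cluster, led by Igfbp3 and Nmb, had 1 control cell and 187 JPI-289 cells, which were at 3051. Among macrophage-like cells, the cluster with C1qa, C1qb and MHC class II genes had Mt1 at 3740 and 16667.5, and the cluster with Lyz2, Fn1 and Arg1 at 1193 and 4357, a ratio of 2.16 (2.09 to 2.23) in the former and 1.87 (1.76 to 1.98) in the latter. The levels of the latter cluster were below those of barcodes under 100 UMIs in both libraries. An unnamed cluster led by Slc14a2, the urea transporter of the inner medulla and thin limb, and Cryab had 3917 and 12483.

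**Figure D2:**
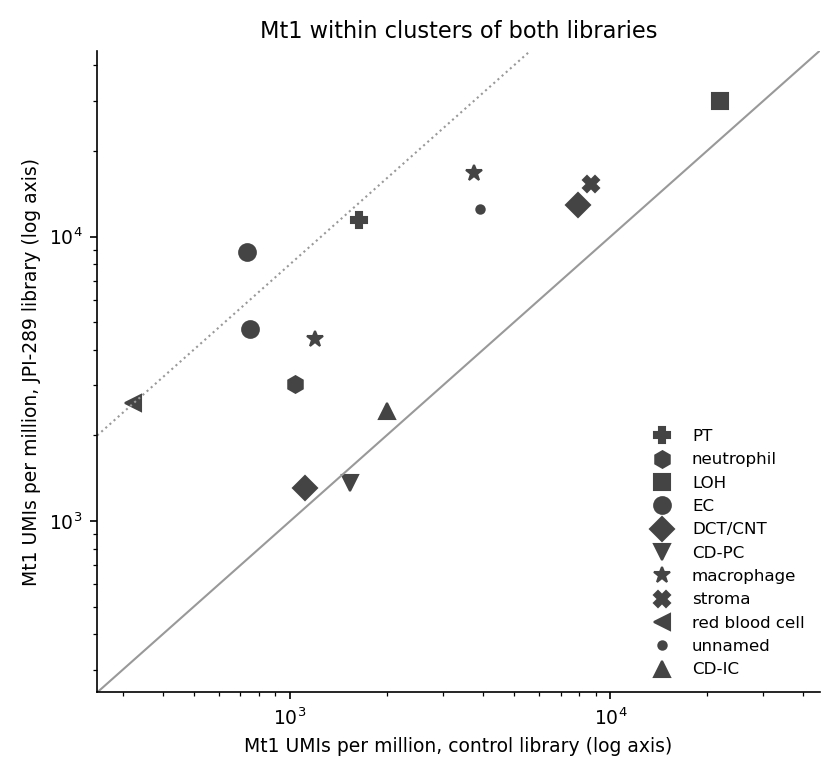
Mt1 in UPM in the control (x) and the JPI-289 library (y), both log axes, for the 14 clusters with at least 20 cells in each library; each symbol is a cluster, marked by class, the solid line is equality and the dotted line is 8-fold. The EC-like cluster at 734 and 8809 lay above the dotted line, and the CD-PC-like cluster was the only one below equality.

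Within PT-like cells of the JPI-289 library the 3 main clusters had different levels. The cluster led by the fibrinogen chains Fgb, Fgg and Fga had Mt1 at 12229 UPM and Mt2 at 1253, the cluster led by Srxn1 and Plin2 at 11417.5 and 1244, and the cluster led by Kap and Cyp2e1, which also had Havcr1 among its leading genes, at 5329.5 and 664. The 3 main control clusters were at 696, 450 and 498 for Mt1 and at 51.3, 26.7 and 43.7 for Mt2. Every main JPI-289 cluster was thus above every main control cluster, by at least the step from 696 to 5329.5 for Mt1.

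The transcripts were spread over most treated PT-like cells. After each cell was thinned to 1000 UMIs, 38.4% (35.8 to 41.1) of 1337 control cells and 95.7% (94.3 to 96.8) of 1138 JPI-289 cells had a Mt1 UMI, and 3.81% (2.85 to 4.99) and 56.7% (53.7 to 59.6) had a Mt2 UMI. Before thinning, 64.4% of 1777 control and 97.9% of 1642 JPI-289 cells had a Mt1 UMI. Red blood cell-like barcodes, taken as cells without tubule RNA of their own, had a Mt1 UMI in 13 of 56 control barcodes, or 23.2% (13 to 36.4), and in 45 of 93 JPI-289 barcodes, or 48.4% (37.9 to 59), at median depths of 1519.5 and 1531 UMIs against 2285 and 1859 in PT-like cells. The control PT share was above the red blood cell share, but their intervals met between 35.8% and 36.4%, and without thinning the shares were 64.4% (62.2 to 66.7) and 34.2% (23.7 to 46). The JPI-289 PT share lay above the red blood cell interval.

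The number of Mt1 and Mt2 UMIs per 1000 in a PT-like cell had a median of 0 in the control, with 90% of cells at 2 or below, and a median of 10 with JPI-289, with 10% of cells at 2 or below and 10% at 23 or above. LOH-like cells had medians of 23 and 33. The medians were 0 and 3 in EC-like, 1 and 6 in macrophage-like, 2.5 and 7.5 in stroma-like and 0 and 2 in neutrophil-like cells. Shares of thinned cells with a Mt1 UMI were 34.5% and 82.6% for EC-like and 36.7% and 78.8% for neutrophil-like cells, but 96.0% and 98.9% for LOH-like cells, where nearly every cell had the transcript in both kidneys. The control intervals of EC-like (29.6 to 39.7) and neutrophil-like cells (29.6 to 44.3) overlapped that of red blood cell-like barcodes (13 to 36.4), and their JPI-289 shares lay above the red blood cell interval of 37.9 to 59. In CD-PC-like cells the share was 46.4% in the control and 76.0% with JPI-289, against the level in UPM, which was lower with JPI-289, so no order is read from it.

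**Figure D3:**
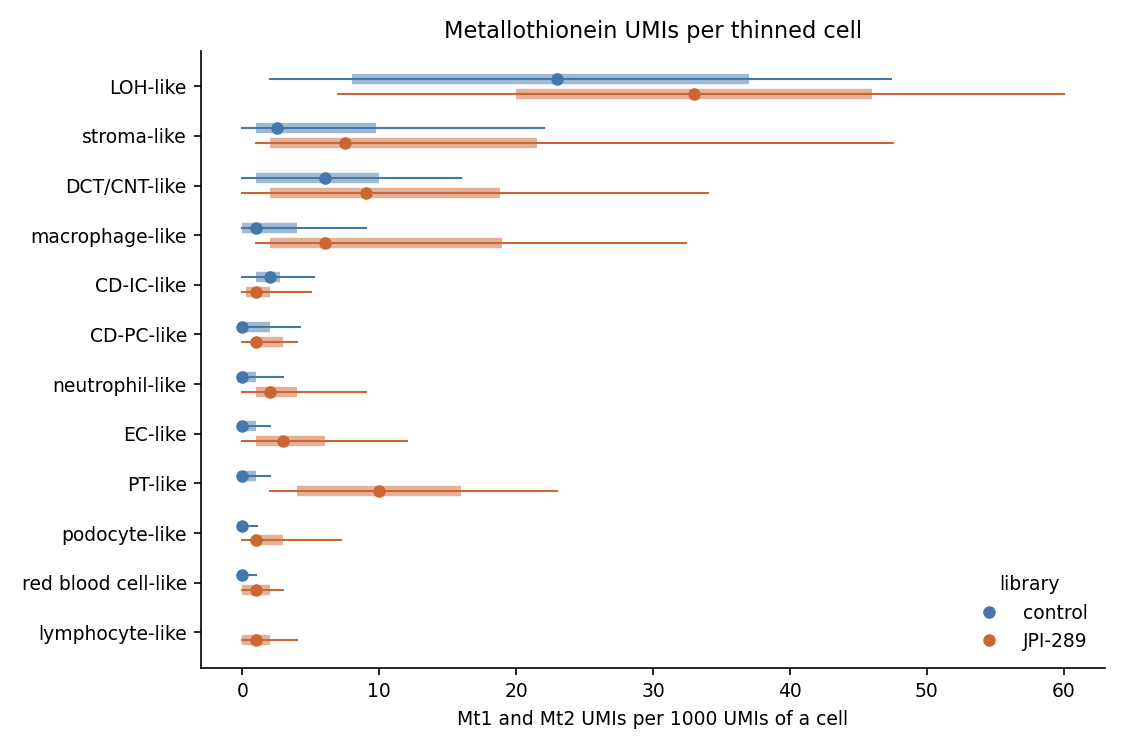
Mt1 and Mt2 UMIs per 1000 UMIs of a cell (x) by class and library after each cell was thinned to 1000 UMIs; points are medians, thick bars the middle 50% and thin bars the range from the tenth to the ninetieth percentile of cells, and groups with under 10 cells are left out. The PT-like median was 0 in the control and 10 in JPI-289 cells, and the LOH-like medians were 23 and 33.

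Detection of Mt1 and Mt2 in the same PT-like cells was somewhat above what their separate shares give in both libraries. After thinning, 55.9% of JPI-289 PT-like cells had UMIs of both genes, where independent detection at 95.7% and 56.7% gives 54.2%. With Mt1 in nearly every cell the joint share cannot lie far from that value, so it cannot show how strongly the genes go together. Of JPI-289 PT-like cells with a Mt2 UMI, 98.6% had a Mt1 UMI. In control PT-like cells 2.39% had both, where independent detection gives 1.47%. Per cell, the counts of the genes had a Spearman rho of 0.50 over 1138 cells and of 0.45, 0.51 and 0.42 within the 3 clusters, as a description with a shared library.

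PT-like cells with and without a UMI of a marker of injured or mature tubule differed less in Mt1 than the libraries did. Among JPI-289 cells with a UMI of Havcr1, the injury marker KIM-1, the mean was 8.73 Mt1 UMIs per 1000 over 298 cells, and it was 10.5 over 840 cells without one. In the control the corresponding means were 0.437 and 0.616. For Lcn2, the injury marker NGAL, the means with and without were 9.83 and 10.1 with JPI-289 and 0.635 and 0.601 in the control, and for Slc34a1, the phosphate transporter of mature PT, 9.15 and 10.7 with JPI-289 and 0.537 and 0.685 in the control. In all of these divisions the control means were below 1 and the JPI-289 means above 8. The Havcr1 level itself was 115 UPM in control and 456 in JPI-289 PT-like cells. At such levels a cell thinned to 1000 UMIs can carry the transcript and show no UMI. The divisions are therefore blurred, and the part of injury state in the metallothionein level was not tested.

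The balance of the genes differed between cell types. A UMI stands for 1 molecule whatever the length of the transcript, and Mt1 made up 88.4% of all Mt1 and Mt2 UMIs in control cells and 88.0% in JPI-289 cells. Among classes with at least 50 such UMIs in each library, it was highest in neutrophil-like cells, at 95.1% in both libraries (92.8 to 96.9 and 94.5 to 95.7), and lowest in EC-like cells, at 81.5% (79.6 to 83.3) and 77.3% (76.5 to 78.1). PT-like cells had 93.8% (93.0 to 94.4) and 90.2% (90 to 90.4), LOH-like cells 89.3% and 88.1%, and stroma-like cells 85.1% (84.3 to 85.8) and 78.6% (77.7 to 79.5). Free RNA in barcodes under 100 UMIs had 88.6% (86.4 to 90.5) and 86.5% (85.0 to 87.8), so that the neutrophil-like share lay above and the EC-like share below free RNA beyond counting error in both libraries. With JPI-289, the Mt2 part was larger beyond counting error in PT-like, LOH-like, EC-like, stroma-like and macrophage-like cells, and the intervals overlapped in DCT/CNT-like, CD-PC-like, CD-IC-like and neutrophil-like cells. All these shares include free RNA, put at 70.3% and 73.2% of Mt2 but 27.9% and 24.0% of Mt1 UMIs in neutrophil-like cells. In control PT-like cells it was put at 46.4% of Mt2 and 23.9% of Mt1 UMIs. The balance of the cells' own transcripts was therefore not measured.

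**Figure D4:**
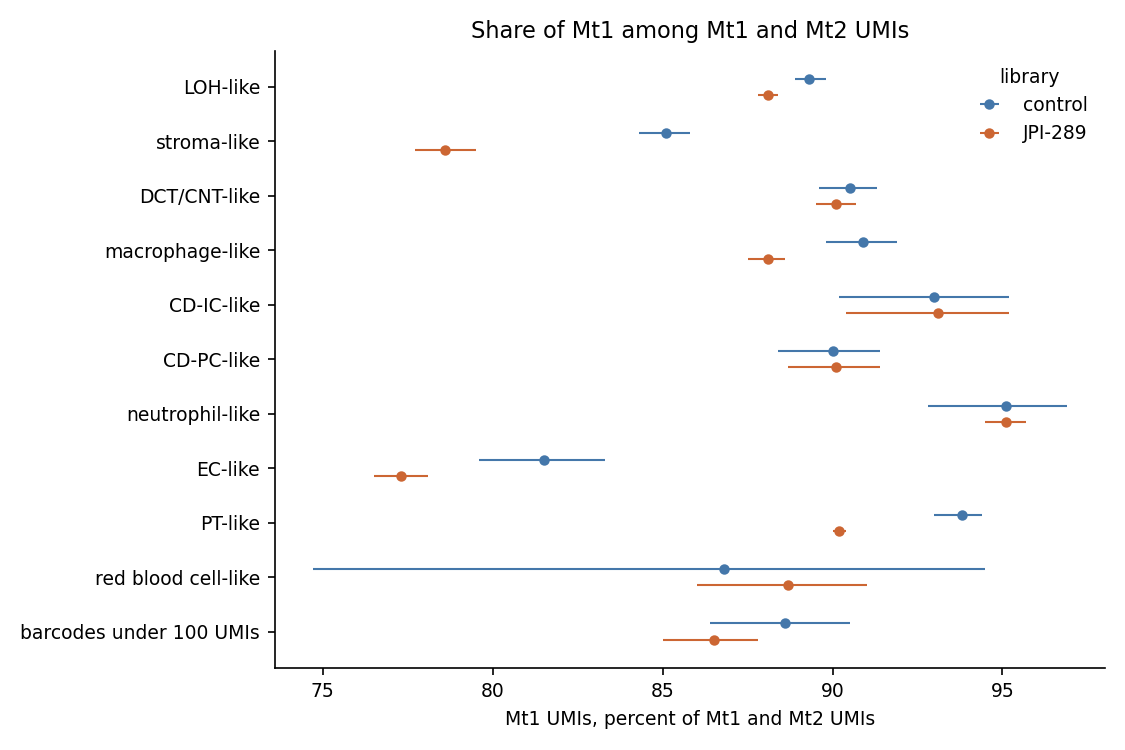
Mt1 UMIs as a percentage of Mt1 and Mt2 UMIs (x) by class and library, with exact 95% binomial intervals, for classes with at least 50 such UMIs in each library and for barcodes under 100 UMIs. Neutrophil-like cells were at 95.1% in both libraries, and EC-like cells were at 81.5% and 77.3%.

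The other members of the cluster of genes on chromosome 8 were rare. Mt3, best known from brain, had 215 UMIs in all control cells and 46 in all JPI-289 cells, and Mt4, known from squamous epithelium, had 40 and 21. Of these, 190 and 31 Mt3 UMIs and all Mt4 UMIs were in stroma-like cells. There Mt3 was at 220 and 77.9 UPM, seen in 26 of 159 control and 7 of 100 JPI-289 cells, and Mt4 was at 46.3 and 52.8, seen in 3 and 4 cells. A single control cell held 38 of the 40 Mt4 UMIs. PT-like cells had 8 and 4 Mt3 UMIs and no Mt4 UMI.

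Genes that carry the same metals or respond to the same signals were then taken, by list, in PT-like cells. Beside each count stands the share of all 11303 measured genes, 9.16% at least 2-fold higher and 23.6% at least 2-fold lower with JPI-289, and the median of all genes, -0.19. As no sample is replicated, these values describe the libraries.

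Of 9 genes for the metal-responsive factor and its targets, 7 were measured, 1 was at least 2-fold higher and 0 were lower, with a median of 0.37. The list holds the factor itself and was not divided into genes that it raises and genes that it lowers. Its median is therefore no measure of induced targets alone. The lists overlap. Slc39a10, whose ratio is this median, also gives the median of the zinc importers. Gclc, the gene at least 2-fold higher, is counted again among the oxidative stress genes. Mtf1, the factor itself, was at 15.8 UPM in the control and 29.6 in JPI-289 cells, a log2 ratio of 0.90 (0.58 to 1.23). Slc30a1, the zinc exporter of the plasma membrane and a classic target, was at 19.0 and 27.7, a ratio of 0.54 (0.23 to 0.85). Gclc, the catalytic subunit for glutathione synthesis, was at 161 and 365, a ratio of 1.18, whereas Selenow, a selenoprotein, was at 233 and 140, a ratio of -0.73, and Ndrg1, a gene raised by hypoxia and metals, was at 1773 and 2241, a ratio of 0.34. All of these ratios were below those of Mt1 and Mt2.

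Zinc exporters of the Slc30 family had a median of -0.97 over 7 measured genes, with 1 at least 2-fold higher and 3 lower. Slc30a2, which loads zinc into vesicles, was at 89.2 and 11.9 UPM (-2.90), Slc30a9 was at 88.4 and 26.5 (-1.74) and Slc30a5, which supplies zinc to the secretory pathway, at 40.7 and 20.7 (-0.97). Slc30a4 was at 14.4 and 33.0, a ratio of 1.19. Zinc importers of the Slc39 family had a median of 0.37 over 11 measured genes, with 2 higher and 2 lower. Slc39a14, an importer of zinc, iron and manganese, was at 19.5 and 44.0 (1.17), Slc39a7, which releases zinc from the endoplasmic reticulum, at 37.3 and 61.6 (0.72), and Slc39a1, at the plasma membrane, at 24.7 and 39.7 (0.68). Slc39a5 was at 14.6 and 5.04 (-1.52) and Slc39a11 at 12.8 and 5.18 (-1.30).

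Genes of copper handling had a median of -0.36 over 13 measured genes, with 0 higher and 4 lower. Atox1, a copper chaperone, was at 713 and 769 UPM (0.11), Cox17 at 238 and 209 (-0.19) and Sod1, the copper and zinc superoxide dismutase, at 114 and 178 (0.64). Atp7a, the copper-exporting ATPase, was at 15.4 and 2.59 (-2.54), Ccs, the chaperone of Sod1, at 130 and 53.6 (-1.28) and Steap2, a metalloreductase, at 233 and 109 (-1.10). Sco2, of cytochrome oxidase assembly, was at 20.4 and 22.8, with an interval that included 0.

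Glucocorticoid response genes had a median of -0.48 over 11 measured genes, with 1 higher and 2 lower. Fkbp5, a chaperone induced by the receptor, was at 117 and 40.5 UPM (-1.53), Errfi1 at 805 and 250 (-1.69) and Sgk1, a kinase of sodium transport, at 284 and 146 (-0.96). Per1, a clock gene, was at 27.8 and 100 (1.85), Hsd11b1, which regenerates the active hormone, at 9.75 and 15.7 (0.68) and Klf9 at 212 and 316 (0.58).

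The list of interleukin-6 and STAT3 acute phase genes had a median of 0.63 over 18 measured genes, with 5 higher and 0 lower. The fibrinogen chains Fgg (264 and 1171 UPM, 2.15), Fga (293 and 992, 1.76) and Fgb (99.2 and 734, 2.89) and the transcription factor Cebpd (20.6 and 106, 2.35) were among the 5, whereas Socs3, the feedback inhibitor of STAT3, was at 44.6 and 36.7 (-0.28) and Bcl3 at 8.64 and 4.77 (-0.85). Oxidative stress genes had a median of 0.80 over 18 measured genes, with 8 higher and 0 lower. Srxn1, sulfiredoxin, was at 134 and 1188 (3.15), Prdx1, a peroxiredoxin, at 3058 and 8466 (1.47), and Slc7a11, the cystine importer, at 4 and 114 UMIs (4.81, 3.58 to 6.88). Gpx3, the plasma glutathione peroxidase made by PT, was at 19389 and 13833 (-0.49), Gpx1 at 2866 and 2502 (-0.20) and Sod2, of mitochondria, at 330 and 262 (-0.34).

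**Figure D5:**
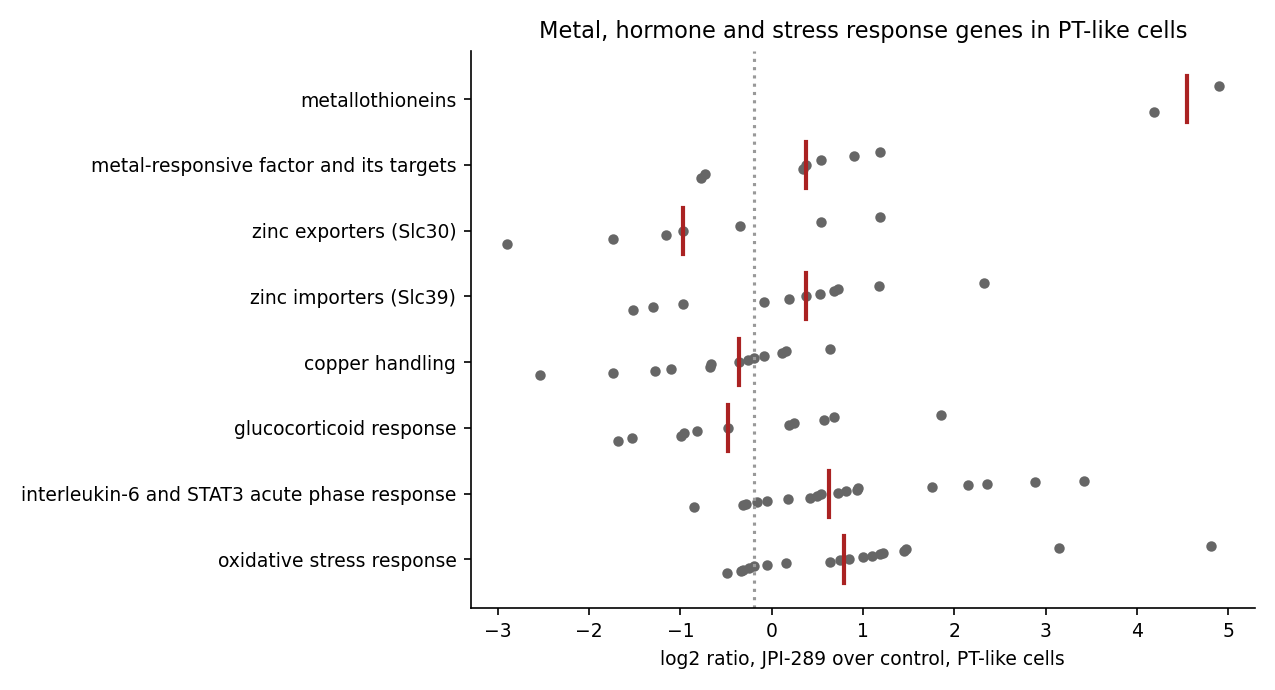
Log2 ratio of JPI-289 to control in PT-like cells (x) for every measured gene of 8 lists (y); each point is a gene, red bars are list medians and the dotted line is the median of all measured genes, -0.19. Mt1 and Mt2 were at 4.19 and 4.90, and of the genes in the other lists only Slc7a11, at 4.81 on 4 control UMIs, lay above Mt1.

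Across classes, the genes whose level was most like that of summed Mt1 and Mt2 were ranked by Pearson correlation of log2 levels over 21 points, each a class with at least 50 cells in 1 library, among 10213 genes. The 10 were Sphk1 (r = 0.77), Gm45716 (0.77), Bmyc (0.75), Socs2 (0.74), Fndc4 (0.69), Gsto1 (0.68), Umod (0.67), Sfrp1 (0.67), Dnajc11 (0.66) and Slc39a14 (0.65), where Mt1 against Mt2 gave 0.95 and the median gene 0.19. Sphk1, the kinase that makes sphingosine-1-phosphate, was for example at 5.55 and 71.2 UPM in PT-like cells from control and JPI-289 kidney and at 74.1 and 222 in LOH-like cells. Slc39a14 is the importer named above. The points share 2 libraries, so the correlations are a description.

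Per cell, in the 1138 thinned JPI-289 PT-like cells, 1286 genes detected in at least 10% of cells were ranked against Mt1 and Mt2. These values were weak in sparse counts and are no finding. The highest were 0.28 for Tsc22d1, 0.27 for Fth1 and 0.20 for Ftl1, the chains of ferritin, 0.21 for Dbi and 0.19 for Spp1, osteopontin. The lowest were -0.30 for Kap, an androgen-dependent gene of PT, and -0.22 for Cyp2e1, both leading genes of the cluster with the lowest metallothionein level. Within that cluster rho was -0.14 for Kap and -0.07 for Cyp2e1, within the Srxn1-led cluster -0.15 and -0.11, and within the fibrinogen-led cluster 0.04 for both. In the Srxn1-led, fibrinogen-led and Kap-led clusters, rho was 0.22, 0.07 and 0.25 for Tsc22d1 and 0.24, 0.135 and 0.16 for Fth1. In the same order Ftl1 had 0.16, -0.017 and 0.30, Dbi 0.23, 0.11 and 0.03, and Spp1 only 0.001, 0.010 and 0.084.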

How the data were processed

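The authors deposited unfiltered tables of UMI counts, genes by barcodes, for 2 single-cell libraries of post-ischemic mouse kidney, 1 control and 1 JPI-289. The submitters' processing notes name Cell Ranger 5.0.1 and mm10. The count tables list 32285 genes.

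Cells were called in 2 steps, first above 3338 (control) and 2618 (JPI-289) UMIs, then, among barcodes of at least 500 UMIs, by difference from the profile of barcodes ranked 45000 to 90000 (10000 simulations, false discovery rate 0.01). Cells over 50% mitochondrial UMIs were left out (540 of 4281 and 396 of 5433). Clustering used 2000 variable genes without Mt1 and Mt2, 30 principal components, 20 neighbours and Leiden resolution 1.0. A cluster took the name of its highest-scoring marker list where the score was at least 0.75, at least 3 markers were detected and no other list had more of the 10 leading genes; a cluster led by the injured PT list counted as PT-like where the PT list came next. Scrublet marked 2 of 8778 cells as doublets and so did not work here; cells with the highest 5% of scores were left out as an alternative.

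UPM is the summed UMIs of a gene over all UMIs of the same class and library, times 1000000. Ratios had 0.5 UMI added, with exact binomial intervals, and levels exact Poisson intervals, at the 95% level. No test between conditions was possible. For shares, cells were thinned to 1000 UMIs. Genes needed 20 UMIs over both libraries, or 200 for likeness across classes, where 10 UPM was added. The share of free RNA in a class was the median, over marker lists of other classes, of their level relative to that in small barcodes. Promoters came from RefSeq (GRCm38.p6), with both genes matched, and transcripts from GENCODE vM21. Genes named in PT-like cells are, per list, the 3 with most UMIs and the 2 highest and 2 lowest ratios among those with at least 100 UMIs, with the 10 genes most like the pair across classes and the 5 most correlated per cell, and Havcr1, Lcn2 and Slc34a1. The members and gene lists were chosen with earlier results of these data known. The ratios, intervals, ranking and cell calling were tested on simulated data. The alternatives tried were first-step cells alone, minimum 1000 UMIs, at most 20% mitochondrial UMIs, resolution 0.5, Mt1 and Mt2 kept for clustering, centring on the median gene, nuclear-genome UMIs as the total, equal weight of cells, another added value, free RNA subtraction, doublet scores, injury-led clusters left out, other thinning depths, Spearman correlation and a minimum of 100 UMIs per gene. Tools were scanpy 1.11.5 with leidenalg 0.10.2, scipy 1.17.1, numpy 2.4.6 and matplotlib 3.10.9 under Python 3.11.15.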

Additional observations from a re-analysis of the deposited data

Results flagged for a closer look

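The ratio of summed UMIs in CD-PC-like cells had the opposite sign to that in PT-like cells, a log2 value of -0.17 against 4.19 for Mt1 and -0.19 against 4.90 for Mt2, and with 1 library per condition the difference was not tested. In CD-PC-like cells thinned to 1000 UMIs, control and JPI-289 means were 1.3 and 1.55 for Mt1 and 0.159 and 0.199 for Mt2. The level of JPI-289 CD-PC-like cells could not be told apart from free RNA, so the opposite sign is uncertain. Signal that the comparison of cells did not use was also higher with JPI-289. In barcodes under 100 UMIs, which hold mostly free RNA, Mt1 was at 5841 UPM against 1898 in the control and Mt2 at 913 against 245. In called cells left out for over 50% mitochondrial UMIs, Mt1 was at 1978 against 365 and Mt2 at 286 against 45.8. No group had the 4 samples needed to look for a sample apart from the rest.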

How the results depend on the processing

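Both ratios in PT-like cells were positive under all 13 alternatives, from 3.72 to 5.27 for Mt1 and from 4.25 to 7.95 for Mt2. Values outside the counting interval for Mt1 in PT-like cells were 4.35 with first-step cells alone, 4.26 with at least 1000 UMIs, 4.38 when centred, 3.72 with equal weight of each cell, 4.54 and 5.27 with free RNA subtracted from barcodes under 100 and of 100 to 300 UMIs, and 4.07 without the injury-led cluster. For Mt2 they were 5.09 when centred, 4.25 with equal weight, and 5.73 and 7.95 with free RNA subtracted. Over all cells, Mt1 was 1.79 with first-step cells, 1.72 with at least 1000 UMIs, 1.58 with at most 20% mitochondrial UMIs, 1.91 centred and 1.43 with equal weight, and Mt2 was 1.81 with first-step cells, 1.64 with at most 20% mitochondrial UMIs, 1.96 centred and 1.59 with equal weight. The sign turned in CD-PC-like cells for Mt1 with equal weight (0.215), and in CD-IC-like cells for Mt2 with equal weight (-0.33) and for Mt2 (-0.37 and -0.42) and Mt1 (-0.089, second source alone) with free RNA subtracted. The cause was not tested. Both genes were higher in 7 of the 8 classes that still had more than 3 UMIs after subtraction with barcodes of 100 to 300 UMIs, an alternative chosen after seeing the data, and in 8 of 10 with barcodes under 100 UMIs, against 11 of 12. The share of PT-like cells with a Mt1 or Mt2 UMI was 26.4% and 91.7% at 500 UMIs and 66.0% and 98.5% without thinning. Of the 10 genes most like the pair across classes, 2 were among the first 10 in JPI-289 classes alone. No paired analysis was possible because each condition has 1 library, and none could be left out for the same reason.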
